A study of Mus musculus with 6 samples.

Results

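The genes described here encode 5 small heat shock proteins (Hspb1, Cryab, Hspb6, Hspb8 and Hspb2) and 4 members of the inducible HSP70 machinery (Hspa1a, Hspa1b, Hsph1 and Dnajb1). These 9 symbols were looked up among the 24062 gene symbols of the count tables, and all 9 were found. The set was selected on the expression values of Hspb1, which were lower in the NF1 f/f libraries than in the Ctrl libraries, so the NF1 f/f against Ctrl values of all 9 genes are a description and not a test. RNA was sequenced from optic nerves of adult mice, over 2 months old, that had been given tamoxifen 1 month before the nerve was taken. The 3 NF1 f/f libraries have the genotype PlpCreERT2;Nf1flox/flox, in which a tamoxifen-inducible Cre targets Nf1, a negative regulator of Ras, mainly in oligodendrocytes. Of the 3 Ctrl libraries, library 1 is Nf1flox/flox and libraries 2 and 3 are Nf1flox/+, each with no Cre in its genotype. All 6 therefore carry at least 1 floxed Nf1 allele. The labels do not say whether each library is 1 animal, so the spread between libraries may be partly technical.

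Small heat shock proteins bind unfolding proteins without using ATP and hold them in a state from which other chaperones can refold them. HSP70 proteins then refold or hand on these clients in an ATP-driven cycle, in which J domain proteins deliver the client and HSP110 proteins exchange the nucleotide. Heat shock factors switch on many of these genes through heat shock elements, which are alternating copies of a short GAA unit and its complement TTC. In white matter, Cryab is known as an abundant product of oligodendrocytes and astrocytes, and Hspb1 is widely used as a gene of stressed or reactive astrocytes.

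Of the 9 genes, 7 had entries among the RefSeq promoters (GRCm38.p6), with 10 transcript starts in all. Cryab and Hspb2 had no entry. The 250 bases before each start were searched on both strands for a pair of opposite units, GAANNTTC or TTCNNGAA, each of which is its own reverse complement. GAANNTTC was found in 4 of the 10 windows, of which those of Hspa1a and Hspa1b are near copies of each other. TTCNNGAA was found in 2 of the 10, which are overlapping windows of Hsph1 that hold the same site. Among 15200 such windows of all tested genes the shares were 5.12% and 5.97%. A row of 3 alternating units with the same spacing, the longer form of the element, was found in 0 of the 10 and in 0.414% of the windows of tested genes. The windows that hold a pair are printed 5′ to 3′ with the matched units in capitals, to set those of Hspb1 and Hspb6 beside those of the HSP70 genes and Hsph1. They lie at chr5:135887669-135887918 on the plus strand for Hspb1, chr7:30553051-30553300 on the plus strand for Hspb6, chr17:34972157-34972406 on the minus strand for Hspa1a, chr17:34959239-34959488 on the minus strand for Hspa1b, and chr5:149636337-149636586 on the minus strand for Hsph1. A match is a run of letters and not evidence that a factor binds.
Hspb1: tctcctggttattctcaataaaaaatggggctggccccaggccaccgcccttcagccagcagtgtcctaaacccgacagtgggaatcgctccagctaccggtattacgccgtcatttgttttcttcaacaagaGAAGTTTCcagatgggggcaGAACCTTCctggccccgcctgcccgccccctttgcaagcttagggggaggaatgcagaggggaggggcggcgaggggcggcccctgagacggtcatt
Hspb6: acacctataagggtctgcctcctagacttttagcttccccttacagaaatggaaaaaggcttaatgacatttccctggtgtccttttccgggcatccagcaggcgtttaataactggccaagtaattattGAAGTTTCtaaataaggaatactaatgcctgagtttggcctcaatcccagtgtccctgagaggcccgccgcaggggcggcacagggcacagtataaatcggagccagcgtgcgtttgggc
Hspa1a: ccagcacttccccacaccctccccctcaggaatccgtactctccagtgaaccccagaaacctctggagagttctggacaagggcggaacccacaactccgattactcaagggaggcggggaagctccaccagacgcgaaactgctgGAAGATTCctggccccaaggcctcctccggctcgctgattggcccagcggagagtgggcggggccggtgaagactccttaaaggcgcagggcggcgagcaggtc
Hspa1b: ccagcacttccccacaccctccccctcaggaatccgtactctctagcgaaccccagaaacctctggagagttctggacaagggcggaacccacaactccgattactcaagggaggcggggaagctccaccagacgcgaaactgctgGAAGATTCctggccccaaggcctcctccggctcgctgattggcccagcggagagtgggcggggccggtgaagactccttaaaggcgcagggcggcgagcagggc
Hsph1: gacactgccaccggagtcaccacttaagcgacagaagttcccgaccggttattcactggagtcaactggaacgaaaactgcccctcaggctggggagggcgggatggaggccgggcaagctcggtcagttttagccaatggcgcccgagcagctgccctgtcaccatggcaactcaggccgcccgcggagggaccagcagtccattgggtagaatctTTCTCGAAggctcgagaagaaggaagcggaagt

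Hspb1 held 2 GAANNTTC pairs, starting 117 and 97 bases before its transcript start. The other printed windows held 1 pair each. The pair of Hspb6 had the same letters as the upstream pair of Hspb1, GAAGTTTC. The Hspa1a and Hspa1b windows are identical at 247 of 250 bases and share GAAGATTC at the same place, 104 bases before the start. Hsph1 had the other orientation, TTCTCGAA, 33 bases before the more upstream of its RefSeq starts. The windows of Hspb8 and Dnajb1 held neither pair, nor did the more upstream window of Hspb6, at chr7:30552290-30552539. The Dnajb1 window at chr8:83608298-83608547 lies inside the gene as counted.

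The libraries held 13555756 to 19012262 counts in the NF1 f/f group and 21307855 to 23662698 in the Ctrl group. Across genes, log2 expression in NF1 f/f libraries 1 and 3 had Pearson's r of 0.884 to 0.898 with the Ctrl libraries, NF1 f/f library 2 had 0.954 to 0.962, and the Ctrl libraries had 0.969 to 0.981 among themselves. NF1 f/f libraries 1 and 3 thus stand apart from library 2, and results are given with and without it. Library 2 was singled out on these same data for its nearness to the Ctrl libraries, so leaving it out favours larger differences. Nf1 itself had 304, 226 and 433 CPM (counts scaled to a common library size) in NF1 f/f libraries 1, 2 and 3, against 394, 400 and 337 CPM in Ctrl libraries 1, 2 and 3. These groups overlapped (log2 fold change -0.23, SE 0.28, adjusted p by edgeR 0.703), and since the count covers the whole gene it does not show the floxed part or check the labels. The 3 NF1 f/f libraries and Ctrl library 2 had high Xist and no Y-linked counts, while Ctrl libraries 1 and 3 had Y-linked counts, so sex marker expression and group are partly confounded.

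Per unit of length, Cryab was by far the highest of the 9 genes in control nerve. FPKM (CPM per kilobase of the deposited gene length) averaged 350 ± 45.5 for Cryab over the Ctrl libraries (SD, n = 3), above 99.6% of tested genes. Next came Hspb8 with 84.4 ± 11.0 FPKM and Hsph1 with 66.5 ± 24.1 FPKM, which overlapped each other between libraries. Hspb1 had 32.7 ± 5.55 FPKM and overlapped with Dnajb1 at 23.8 ± 7.93 FPKM, which in turn overlapped with Hspb6 at 14.6 ± 2.31 FPKM. Hspb2 was low at 2.69 ± 0.220 FPKM, and its libraries overlapped with those of Hspa1a at 1.79 ± 0.997 FPKM. Hspa1b had the lowest mean at 1.09 ± 0.256 FPKM, above 14.2% of tested genes, but its libraries overlapped with those of Hspa1a, with which it shares much sequence. As counted, Hspa1a and Hspa1b were thus near the bottom of the range, and Cryab, Hspb8 and Hsph1 near the top. The full deposited length was used for each gene. By transcript sequence, 66.3% of the 50-base words of Hspa1a, 62.3% of Hspa1b and 50.1% of Hspb1 also occur in other genes. For Hspb8 and Hsph1 this was 0%. If reads from shared stretches went uncounted, the levels and places of Hspa1a, Hspa1b and Hspb1 in this order are too low. Between control libraries the SD of the 5 small heat shock protein genes was 8.15% to 17% of their mean CPM, and that of the 4 HSP70 machinery genes 23.6% to 55.8%.

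**Figure D1:**
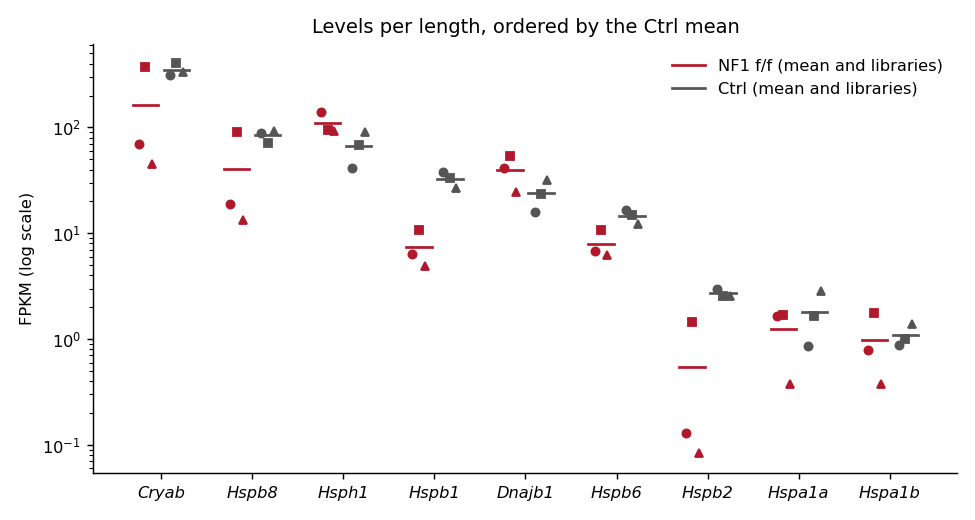
FPKM on a log axis for the 9 genes, ordered by the mean of the Ctrl libraries, with each library as a point (circle, square and triangle for libraries 1, 2 and 3) and the group mean as a line. Cryab has the highest mean in both groups, at 162 FPKM in NF1 f/f and 350 FPKM in Ctrl libraries, while Hspa1a and Hspa1b are at 1.24 and 0.969 FPKM in NF1 f/f and 1.79 and 1.09 FPKM in Ctrl libraries.

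By group mean the order in the NF1 f/f libraries was Cryab, Hsph1, Hspb8, Dnajb1, Hspb6, Hspb1, Hspa1a, Hspa1b and Hspb2, so that Hsph1 stood above Hspb8, Dnajb1 and Hspb6 above Hspb1, and Hspb2 last at 0.550 ± 0.770 FPKM. The NF1 f/f libraries differed widely from each other in some of these genes. Cryab had 69.9, 371 and 45 FPKM in NF1 f/f libraries 1, 2 and 3, against 316, 402 and 333 FPKM in Ctrl libraries 1, 2 and 3. Hsph1 had 141, 93.8 and 93.3 FPKM in the NF1 f/f libraries and 41.4, 68.4 and 89.6 FPKM in the Ctrl libraries. Hsph1 was thus above Cryab in NF1 f/f libraries 1 and 3, and below it in NF1 f/f library 2 and in each Ctrl library.

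Hspb1 encodes an actin- and client-binding small heat shock protein (chromosome 5, 135887919 to 135889563, plus strand, 3 exons in mm10). It had 107, 128 and 64 counts in NF1 f/f libraries 1, 2 and 3, which is 5.77, 9.67 and 4.47 CPM. In Ctrl libraries 1, 2 and 3 it had 694, 717 and 587 counts, or 34.4, 29.7 and 24.4 CPM. Every NF1 f/f library was below every Ctrl library, and the NF1 f/f mean of 6.64 ± 2.71 CPM was 22.5% of the Ctrl mean of 29.5 ± 5.01 CPM (SD, n = 3 each). On the log2 scale the fitted difference was -2.15 (SE 0.34). In the edgeR quasi-likelihood fit over 16315 genes it was the 1 gene of the 9 past an adjusted p of 0.05, where 0.337% of all genes were past it in the lower direction, 2.95% in the higher and 3.29% in all. Since Hspb1 chose the set, nothing follows from this count. By transcript sequence, 48.8% of the 50-base words of Hspb1 also occur in the pseudogene Hsp25-ps1, which is not among the counted genes. The count of Hspb1 is therefore uncertain and may be too low.

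Cryab, the alphaB-crystallin gene (chromosome 9, 50751325 to 50756635, plus strand), split the NF1 f/f libraries. It had 85.7 and 55.2 CPM in NF1 f/f libraries 1 and 3 but 455 CPM in NF1 f/f library 2, against 387, 493 and 408 CPM in Ctrl libraries 1, 2 and 3. NF1 f/f library 2 lay inside the Ctrl range and the other 2 far below it, so the mean of 198 ± 222 CPM in NF1 f/f libraries, against 429 ± 55.8 CPM in Ctrl libraries, describes no single library. Hspb8, whose protein works with BAG3 in the selective removal of damaged proteins (chromosome 5, 116408495 to 116422864, minus strand), did the same. It had 34.3, 162 and 24.4 CPM in NF1 f/f libraries 1, 2 and 3, against 161, 130 and 168 CPM in Ctrl libraries 1, 2 and 3. The log2 fold changes were -1.11 (SE 0.68) for Cryab and -1.06 (SE 0.62) for Hspb8, and neither passed. Of all tested genes, Hspb8 was the 39th nearest to Cryab over the 6 libraries, by the root-mean-square distance of centred log2(CPM + 1) values, at 0.25 log2 units.

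Hspb6 encodes a small heat shock protein best known from muscle (chromosome 7, 30553302 to 30555439, plus strand). It had 9.01, 14.2 and 8.30 CPM in NF1 f/f libraries 1, 2 and 3, against 22.2, 19.6 and 16.1 CPM in Ctrl libraries 1, 2 and 3, so the groups did not overlap. Its log2 fold change was -0.88 (SE 0.30). Hspb2, another small heat shock protein gene of muscle (chromosome 9, 50751072 to 50752354, minus strand), had 2, 16 and 1 counts in the NF1 f/f libraries and 50, 52 and 52 counts in the Ctrl libraries. These are 0.108, 1.21 and 0.0698 CPM in NF1 f/f libraries and 2.48, 2.16 and 2.16 CPM in Ctrl libraries, and the groups did not overlap (log2 fold change -2.32, SE 0.94). With 19 counts in 3 libraries the size of this difference is poorly fixed. Exons of Hspb2 and Cryab overlap on opposite strands over 252 bases, and the counting ignored strand, so read pairs there cannot be told apart. Neither gene passed the threshold.

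**Figure D2:**
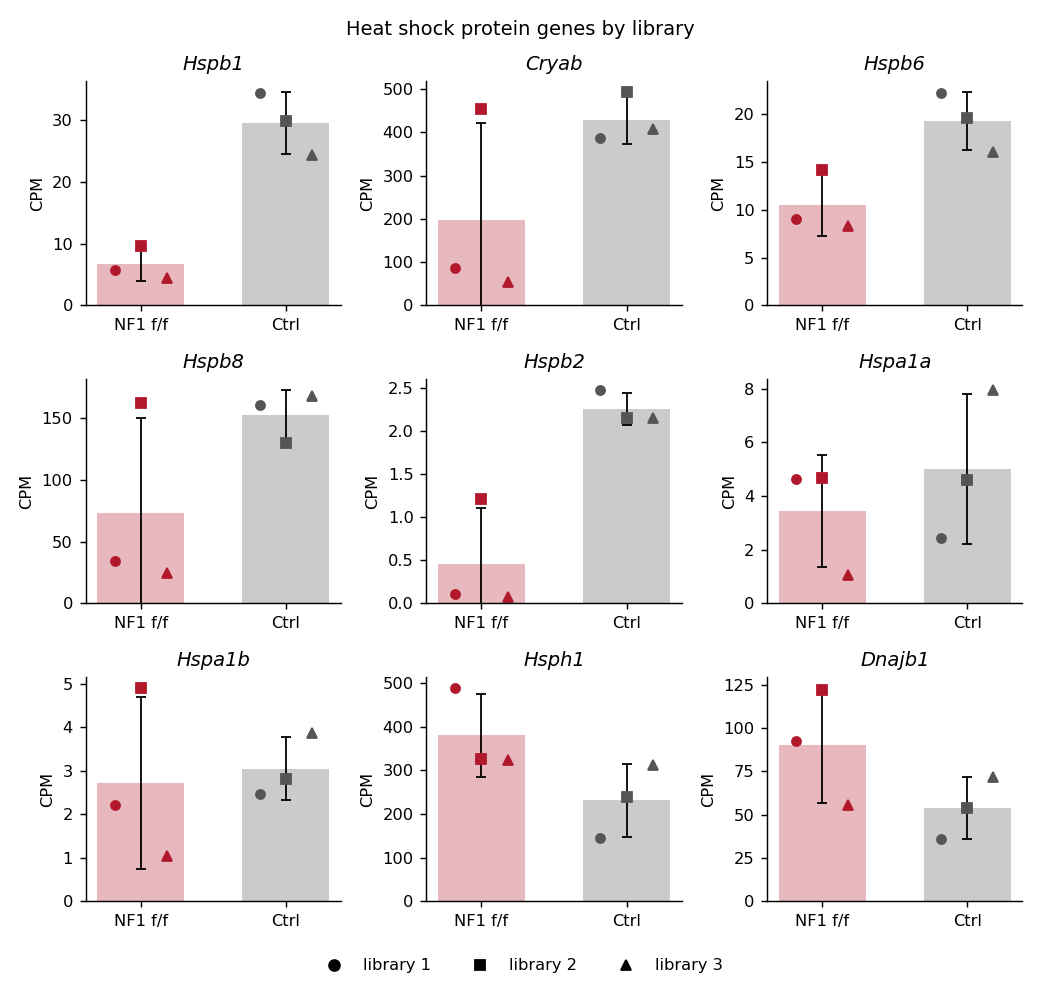
CPM of each of the 9 genes in the NF1 f/f (left) and Ctrl (right) libraries, with bars for group means, error bars for 1 SD (n = 3, cut off at 0) and symbols for libraries 1, 2 and 3. In Hspb1, Hspb6 and Hspb2 all NF1 f/f points lie below all Ctrl points; in Cryab and Hspb8 NF1 f/f library 2 lies among the Ctrl points.

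In all, 3 of the 5 small heat shock protein genes (Hspb1, Hspb6 and Hspb2) had NF1 f/f libraries wholly below the Ctrl libraries, where this held for 11.5% of all tested genes. Log2 fold changes of all 5 were negative, with a median of -1.11, where 50.1% of all tested genes were negative and their median was -0.0017. Hspb1 chose the set by being lower, so its part in these counts and this median was fixed beforehand. Apart from Hspb1, the genes wholly below were Hspb6 and Hspb2, and Hspb2 had only 2, 16 and 1 counts in NF1 f/f libraries 1, 2 and 3. Nothing follows from these counts about the family. When libraries were scaled to oligodendrocyte markers instead, the fold change of Hspb6 turned positive, and Hspb1 was no longer past the threshold (-0.58, SE 0.87), with Cryab at -0.27 and Hspb8 at -0.12. That scaling moved the median of all genes to 1.86, and relative to that median the 5 genes stood between -3.61 and -1.08. The scaling acts on all genes of a library alike, so taking off the median largely undoes it. These relative values are thus no separate check of direction. Under it 2958 genes were past the threshold in the higher and 4 in the lower direction, in place of 482 and 55. Without NF1 f/f library 2 all 5 were past the edgeR threshold and lower, at -2.51 for Hspb1, -2.60 for Cryab, -1.15 for Hspb6, -2.38 for Hspb8 and -4.55 for Hspb2. In that fit 27% of 16857 genes were past it, 13.8% in the lower direction, so the threshold selected far less. The library left out was the NF1 f/f library nearest to the Ctrl libraries, so nothing follows from these 5 calls. Hspb1 was no longer past the threshold without NF1 f/f library 1 or without any of Ctrl libraries 1, 2 and 3, at log2 fold changes of -2.06, -2.02, -2.14 and -2.28 in that order, and remained past it at -1.94 without NF1 f/f library 3. With Xist as a covariate, or with the high Xist libraries alone, Hspb1 stood at -2.16 and 0 genes of all passed by edgeR, with 1295 and 894 genes at an unadjusted p under 0.05.

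Of the 4 genes of the HSP70 machinery, 2 had positive and 2 negative log2 fold changes, and all 4 were positive under the oligodendrocyte scaling. Relative to the median of all genes under that scaling, Hspa1a and Hspa1b stood at -0.81 and -0.74. Hsph1 and Dnajb1 stood at 0.79 and 0.52. Since taking off the median largely undoes the scaling, these values are no separate check of direction. Hsph1, which encodes the HSP110 nucleotide exchange factor of HSP70 (chromosome 5, 149616845 to 149636315, minus strand), had 489, 326 and 325 CPM in NF1 f/f libraries 1, 2 and 3, against 144, 238 and 312 CPM in Ctrl libraries 1, 2 and 3. All NF1 f/f libraries were above all Ctrl libraries, as in 12.5% of tested genes, but NF1 f/f libraries 2 and 3 exceeded Ctrl library 3 by little. The log2 fold change was 0.72 (SE 0.33). Dnajb1, the heat-inducible J domain partner of HSP70 (chromosome 8, 83608175 to 83611903, plus strand), had 92.8, 122 and 55.5 CPM in NF1 f/f libraries and 36.1, 53.7 and 71.9 CPM in Ctrl libraries. These groups overlapped, with a log2 fold change of 0.74 (SE 0.35). Neither gene passed the threshold. In both genes the highest Ctrl library was library 3 and the lowest library 1. Under the oligodendrocyte scaling Hsph1 was past the threshold (2.65) and Dnajb1 was not (2.38).

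Hspa1a and Hspa1b, the neighbouring stress-inducible HSP70 genes on chromosome 17, were low everywhere. Hspa1a had 86, 62 and 15 counts in NF1 f/f libraries 1, 2 and 3, against 49, 111 and 192 counts in Ctrl libraries 1, 2 and 3. Hspa1b had 41, 65 and 15 counts in the NF1 f/f libraries and 50, 68 and 93 counts in the Ctrl libraries. Of the 50-base words of Hspa1b, 62.3% also occur in Hspa1a transcripts, so reads there may be uncounted or given to either gene. The sum avoids the division between the genes but does not recover uncounted reads. Summed, Hspa1a and Hspa1b had 6.85, 9.60 and 2.09 CPM in NF1 f/f libraries, against 4.90, 7.42 and 11.8 CPM in Ctrl libraries. The groups overlapped, and the log2 fold change of the sum was -0.38 (SE 0.56). Of these 4 genes, 0 passed the edgeR threshold and 0 had an unadjusted p under 0.05, as 19.2% of tested genes had, with Hspa1a at -0.53 (SE 0.64) and Hspa1b at -0.17 (SE 0.59).

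Marker genes of several cell types moved with the same libraries. The summed level of 15 mature oligodendrocyte genes, all detected in every library, was 6557, 38536 and 5441 CPM in NF1 f/f libraries 1, 2 and 3, against 29872 to 31336 CPM in the Ctrl libraries. NF1 f/f libraries 1 and 3 were low and library 2 above the Ctrl range, the same division as in Cryab and Hspb8. In the mean over the list, log2(CPM + 1) stood -2.02, 0.15 and -2.50 from the Ctrl mean in NF1 f/f libraries 1, 2 and 3, where Cryab stood at -2.30, 0.09 and -2.93 and Hspb8 at -2.12, 0.09 and -2.59. Hspb1 stood at -2.16, -1.50 and -2.47, so that in NF1 f/f library 2 it was low where the oligodendrocyte list was not. Fibroblast genes, also all 15 detected, stood at -2.58, -0.50 and -2.32, and summed to 855, 4457 and 1050 CPM in NF1 f/f libraries against 5025 to 5647 CPM in Ctrl libraries. The 15 endothelial genes stood at -1.34, -0.24 and -1.23 (392 to 980 CPM in NF1 f/f libraries, 894 to 944 CPM in Ctrl libraries), and the 15 genes of pericytes and smooth muscle at -1.24, -0.19 and -1.55 (167 to 571 CPM in NF1 f/f libraries, 570 to 673 CPM in Ctrl libraries). The 15 astrocyte genes stood at -0.67, -0.05 and -0.72, with 7559 to 10577 CPM in NF1 f/f libraries and 9203 to 11058 CPM in Ctrl libraries. The 15 microglial genes stood at -0.50, 0.34 and -1.15, with 398 to 1025 CPM in NF1 f/f libraries and 772 to 995 CPM in Ctrl libraries. The 15 neuron genes were higher, at 2.96, 0.87 and 2.36 (3719 to 11547 CPM in NF1 f/f libraries, 2117 to 2949 CPM in Ctrl libraries), and so were the 15 genes of striatal projection neurons, at 3.47, 2.88 and 2.83 (1842 to 2876 CPM in NF1 f/f libraries, 331 to 371 CPM in Ctrl libraries). The part of these cell types in the heat shock values was not tested. In a bulk sample, values are relative to the total RNA of the library. Fewer cells of a type, less RNA per cell and more RNA from other cells, of the nerve or not, therefore cannot be told apart.

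**Figure D3:**
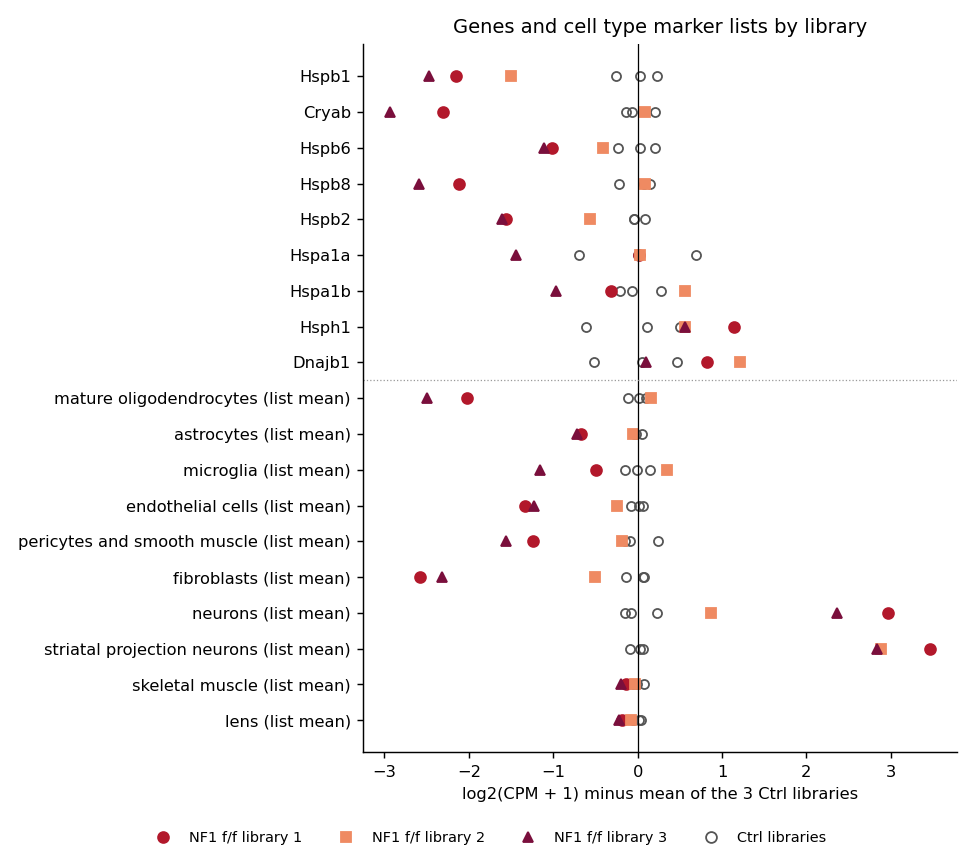
Difference of log2(CPM + 1) from the mean of the Ctrl libraries, for the 9 genes (above the dotted line) and for the mean of 10 cell type marker lists (below it), with filled symbols for the NF1 f/f libraries and open circles for the Ctrl libraries. Cryab and Hspb8 show the same division of NF1 f/f libraries as the oligodendrocyte list (-2.02, 0.15 and -2.50), while Hspb1 is low in all 3.

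Marker genes of lens and skeletal muscle, tissues in which small heat shock proteins are abundant, were near absent. Those of pericytes and smooth muscle, given above, were not. The lens list, which includes the alphaA-crystallin gene Cryaa, summed to 7.18 to 8.31 CPM in NF1 f/f libraries and 9.66 to 12.9 CPM in Ctrl libraries, with 3 to 6 of its 13 genes at 0 counts per library and the lens crystallin gene Crybb2 at 0 in all 6. Skeletal muscle genes summed to 9.28 to 17.7 CPM in NF1 f/f libraries and 13.3 to 16.6 CPM in Ctrl libraries. Immediate early genes, which report recent cell stimulation, stood 1.76, 1.09 and 1.01 log2 units above the Ctrl mean in NF1 f/f libraries 1, 2 and 3. Their part in the values of Hsph1 and Dnajb1 was not tested.

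The 5 genes nearest to Hspb1 over the 6 libraries, by the distance defined above, were Asgr1, AI182371, Loxl1, Pdgfd and Chst3, at 0.18 to 0.25 log2 units. Asgr1, a subunit of the asialoglycoprotein receptor, had 2.43, 6.50 and 1.95 CPM in NF1 f/f libraries, against 16.5, 13.7 and 12.4 CPM in Ctrl libraries. Loxl1 encodes an elastin crosslinking enzyme, Pdgfd a platelet-derived growth factor and Chst3 a chondroitin sulfotransferase. All 5 had NF1 f/f libraries wholly below the Ctrl libraries, as 11.5% of tested genes had, which their choice by likeness to Hspb1 fixes. Among the other small heat shock protein genes Hspb2 was nearest to Hspb1 by this measure, at rank 137 of the tested genes and 0.43 log2 units. Cryab was at rank 1413 and 0.68 log2 units. Hspb2 had only 0.108, 1.21 and 0.0698 CPM in NF1 f/f libraries 1, 2 and 3. The 1 added to CPM shrinks differences at such low levels, so the rank of Hspb2 does not show a likeness to Hspb1. The inducible pair Hsph1 and Dnajb1 were 0.35 log2 units apart, and Dnajb1 was at rank 751 from Hsph1.

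The rest of the chaperone network was measured in 80 further genes, of which 76 passed the filter on low counts. Of these 1 rose and 0 fell, where 3.29% of all tested genes were past the threshold. An unadjusted p under 0.05 by edgeR was found for 6 of the 76, where 19.2% of all tested genes had one. Their median log2 fold change was 0.09. The gene that rose was Dnajb5, a J domain gene (chromosome 4, 42953094 to 42958732, plus strand), with 77.0, 30.1 and 45.4 CPM in NF1 f/f libraries, against 11.6, 17 and 16.8 CPM in Ctrl libraries. By edgeR the rise was 1.74 on the log2 scale, with SE 0.36 and an adjusted p of 0.0377. Its call was lost without NF1 f/f library 1 (1.31), NF1 f/f library 3 (1.82) and each of Ctrl libraries 1, 2 and 3 (1.59, 1.84 and 1.82), with edgeR adjusted p of 0.0963 to 0.195 in these 5 fits. It was also lost with Xist as a covariate (1.62) and in the high Xist libraries alone (1.58). Neuron genes were high in the same libraries, and their part in this rise was not tested. Among the other 15 J domain genes, 0 passed, with Dnajc5, a synaptic vesicle chaperone gene, at 0.61 (SE 0.26) and Dnajc2 at 0.59 (SE 0.30).

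Of 10 other HSP70 and HSP110 genes 0 passed, with a median log2 fold change of 0.06 and values of -0.84 (SE 0.37) for Hspa12b, 0.68 (SE 0.32) for Hspa12a and 0.37 (SE 0.23) for Hspa14. Of 11 genes of HSP90 proteins and their cochaperones 0 passed, with a median of 0.07 and a range of -0.29 to 0.29; Ptges3 was at -0.21, Chordc1 at 0.29 and Cacybp at 0.25. The 10 chaperonin genes, whose products form folding chambers, lay between -0.01 and 0.20, with Tcp1, Cct6a and Cct8 at 0.20, 0.18 and 0.19, and 0 passed; exons of Tcp1 and Cct8 overlap other genes. The list of heat shock factor genes, which also holds the factor-binding protein gene Hsbp1, had 0 of 5 passing. Hsf1, the main stress-responsive factor, was at 47.2 ± 5.40 CPM in NF1 f/f libraries and 50.1 ± 7.87 CPM in Ctrl libraries. Hsf2 was at 0.30 (SE 0.22) and Hsf4 at 0.59 (SE 0.43). Across these 4 lists 1 gene, Hspa12b, had an unadjusted p under 0.05 by edgeR, where 19.2% of all tested genes had one.

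BAG proteins, which release clients from HSP70, and its other cochaperones had 0 of 11 passing. Bag3, the partner of Hspb8, had 14.1, 54.0 and 13.8 CPM in NF1 f/f libraries 1, 2 and 3, against 58.0, 56.9 and 43.2 CPM in Ctrl libraries 1, 2 and 3, again with library 2 among the controls (log2 fold change -0.95, SE 0.51). Bag4 was at 0.78 (SE 0.28) and Bag5 at 0.60 (SE 0.29). Chaperones of the endoplasmic reticulum had 0 of 12 passing and 2 with an unadjusted p under 0.05 by edgeR, where 19.2% of all tested genes had one. All 12 log2 fold changes were negative, with a median of -0.35, where 50.1% of all tested genes were negative. Under the oligodendrocyte scaling Pdia3 and Pdia4 were positive. Relative to the median of all genes, which largely undoes that scaling, they stood at -0.71 and -0.52. Serpinh1, the collagen chaperone gene, had 7.99, 33.0 and 6.42 CPM in NF1 f/f libraries and 38.8, 38.4 and 41.9 CPM in Ctrl libraries (log2 fold change -1.33, SE 0.56). The protein disulfide isomerase genes Pdia3 and Pdia4 were at -0.66 (SE 0.25) and -0.46 (SE 0.23). Of 5 other genes listed with the small heat shock proteins 1, Hspb11, passed the filter, at -0.57 (SE 0.31). Hspb11 shares the symbol, but its membership of the family was not checked, so its value is not read as one of the family. Hspb3, Hspb7, Hspb9 and Cryaa had too few counts to test. Without NF1 f/f library 2, 11 of the other chaperone genes were past the threshold, 5 higher and 6 lower, where 27% of all genes were past it. Among the lower ones were Bag3 at -1.91 and Serpinh1 at -2.45. As said above, leaving out this library favours larger differences.

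**Figure D4:**
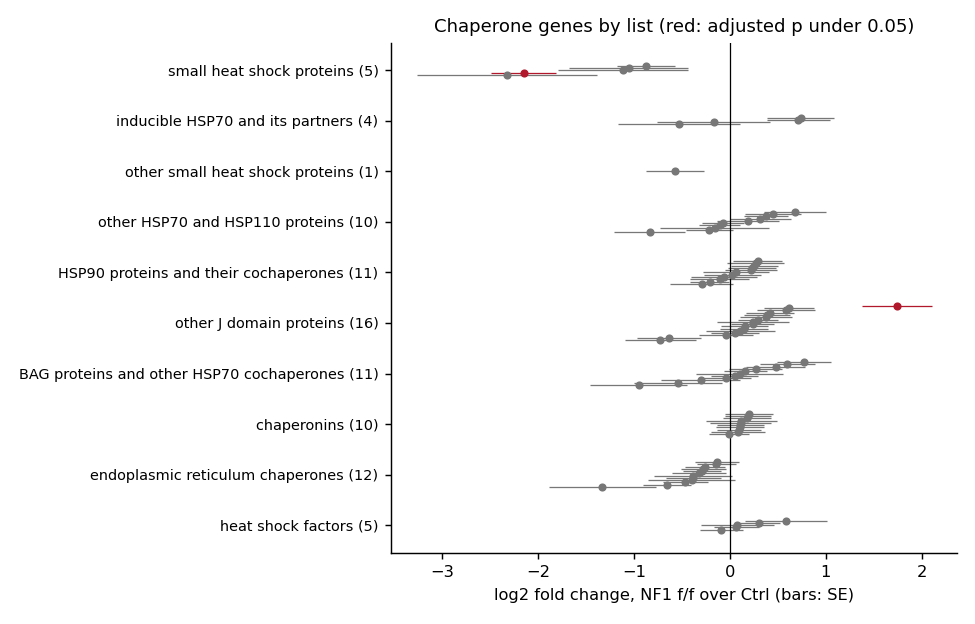
Log2 fold change, NF1 f/f over Ctrl, of each tested chaperone gene by list, with the number of genes tested in brackets and bars for 1 SE; red marks an edgeR adjusted p under 0.05. The 5 small heat shock protein genes lie between -2.32 and -0.88, while the chaperonins lie between -0.01 and 0.20, and the red points are Hspb1 at -2.15 and Dnajb5 at 1.74.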

How the data were processed

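The deposited values are raw counts of read pairs per gene, which, per the file headers, the authors produced with featureCounts 1.4.6-p4 on UCSC mm10 exons, ignoring strand. The header command sets no option for reads that map to several places or overlap several genes. RNA was amplified with the Ovation system before library preparation, per the labels' protocols, and TopHat is named in the submitters' processing notes. GRCm38 is the assembly behind mm10.

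All pairs of libraries differed beyond sampling noise (chi-square per degree of freedom 48.2 or more), so none was treated as a deposited duplicate, which does not show that they come from separate animals. The 16315 genes passing filterByExpr (minimum count 10) were fitted in edgeR 4.0.16 (R 4.3.3) with TMM scaling and quasi-likelihood F tests, with Benjamini-Hochberg adjustment over all of them and a threshold of 0.05. SE is the log2 fold change over the root of F. FPKM are CPM per kilobase of the gene length in the deposited tables, and CPM use TMM-scaled library sizes. All values are relative to the total RNA of a library.

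Alternatives were other scalings, DESeq2 1.42.0, limma-voom (limma 3.58.1), other filters, a covariate and leaving out each library. The genes, lists and marker sets were chosen with earlier results of these data known. Named genes are the 9, Nf1, up to 3 per chaperone list (those past the threshold, then smallest p) and the 5 nearest to Hspb1. The first 3 genes of each marker list, also in that rule, are given here only within their lists, except Crybb2. Precision is limited by 3 libraries a group.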

Additional observations from a re-analysis of the deposited data

How the results depend on the processing

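No paired analysis was possible because the labels give no replicate numbers. The library numbers used here follow the order of the samples within each group. By title, they are EZ, FH and FL for NF1 f/f and IB, IF and HT for Ctrl. Equal numbers across groups imply no pairing. Of all genes, 537 were past the threshold, and 527 to 576 with total counts, upper quartile scaling, DESeq2's size factors, a minimum of 1 CPM in 3 libraries, and X, Y and Rn45s left out. In these 5 fits, and by limma-voom, Hspb1 was past it and lay between -2.22 and -2.15. The count was 1657 with DESeq2, 870 without a filter and 2962 with scaling to oligodendrocyte markers, where 4 other chaperone genes passed and Hspb1, at -0.58, did not, while Hsph1 did (2.65). With Xist as a covariate 0 genes, 0 of the 9 and 0 other chaperone genes passed by edgeR (1295, 1 and 1 at an unadjusted p under 0.05), and Hspb1 was at -2.16. With the high Xist libraries alone, 3 NF1 f/f and 1 Ctrl, counts were again 0, 0 and 0 (894, 1 and 1 at an unadjusted p under 0.05), and Hspb1 was again at -2.16; the single Ctrl library is assumed to vary like the others. Leaving out 1 library gave 51 to 4551 genes, 0 to 5 of the 9, 0 to 11 other chaperone genes, and Hspb1 from -2.51 to -1.94. Signs turned under oligodendrocyte scaling for Hspb6 (0.78), Hspa1a (1.05), Hspa1b (1.12), Nf1 (1.83), Hspb11 (1.23), Hspa12b (0.66), Ptges3 (1.61), Bag3 (0.23), Pdia3 (1.15), Pdia4 (1.34) and Hsf1 (1.72), where the median of all genes was 1.86. Hspa1b was at 0.0059 with the Xist covariate and between -0.89 and 0.21 without 1 library, and Hsf1 between -0.20 and 0.027. Nf1 was between -0.51 and -0.03. Apart from construction, the cause of these changes was not tested.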

Other observations

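Hspb7, a small heat shock protein gene of heart and muscle, was not tested for its low counts. It had 3, 3 and 2 counts in NF1 f/f libraries 1, 2 and 3, against 1, 25 and 50 counts in Ctrl libraries 1, 2 and 3, so that Ctrl library 1 was below every NF1 f/f library and Ctrl libraries 2 and 3 were above them. Hspa1a took 67.7%, 48.8% and 50% of the summed Hspa1a and Hspa1b counts in NF1 f/f libraries 1, 2 and 3, and 49.5%, 62.0% and 67.4% in Ctrl libraries 1, 2 and 3. Both genes were picked for mention after their values were seen.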
